A study of Mus musculus with 8 samples.

Results

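The genes of iron uptake, iron storage and haem recycling were examined in bone marrow cells of mice that carry a cohesin deletion, a leukaemia-associated receptor mutation, or both. They are 10 genes, taken by their symbols from a table of 23293 mouse genes. Tfrc, Steap3 and Slc11a2 serve iron uptake, and Slc25a37 and Slc25a38 serve import into mitochondria. Fth1 and Ftl1 encode the ferritin chains, Hmox1 breaks down haem, and Ireb2 and Aco1 encode the iron regulatory proteins. Each of the 10 passed the filter on low values and was among the 10854 genes tested.

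Messenger RNA had been sequenced from c-Kit+ cells, a marrow fraction rich in stem and progenitor cells that was enriched on Cd117 microbeads from individual mice. The cells were taken 4 weeks after injection of PIpC, which switches on the Mx1-cre recombinase in blood-forming and other cells. There were 8 libraries in 4 groups of 2, and the individual mice are the replicates. The combined group carried Mx1-cre, a floxed Smc3 allele and Flt3-ITD (genotype field Smc3 fl/del Flt3-ITD, title het). The Flt3-ITD group carried Mx1-cre and the Flt3-ITD allele, the Smc3 del/+ group carried Mx1-cre and 1 floxed Smc3 allele, and the controls (Smc3 fl/+) carried a floxed allele without Mx1-cre. Smc3 encodes a core subunit of cohesin, and Flt3-ITD, a duplication inside the Flt3 gene, leaves its receptor kinase switched on. No source used here states the ages of the mice or the number of mutant Flt3 alleles. Because only the controls lack Mx1-cre, every comparison with control also sets carriers of the recombinase against non-carriers. The averaged effects and the interaction also use the controls and so include part of that difference.

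Iron reaches developing blood cells bound to transferrin, which the transferrin receptor carries into endosomes, where the metal is reduced and moved to the cytosol. From there it goes to mitochondria for haem and iron-sulphur clusters, or into the ferritin shell. When iron is scarce, the iron regulatory proteins bind a hairpin called the iron-responsive element. Bound near the start of ferritin messages it blocks their translation, and bound behind the coding part of the Tfrc message it protects that message from decay. Erythroid precursors are the main consumers of iron in marrow, and macrophages return it by breaking down the haem of aged red cells.

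The hairpins link the uptake and storage genes, so their cores are shown here from GENCODE vM21 transcripts (GRCm38). The search asked for a C, 5 stem bases, the loop letters CAGTG with any base after them, and 5 bases that pair with the stem (G-T pairs allowed), read on the transcript strand. Such a core of 17 bases lay in the UTR of 160 of 21161 protein-coding genes (0.756%). Among the iron genes it was found in Fth1, Ftl1 and Tfrc, and among the wider pathway list described below in Slc40a1, the iron exporter. Capitals mark the loop letters.
Fth1 5′ UTR, from base 93: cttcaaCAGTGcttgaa
Ftl1 5′ UTR, from base 84: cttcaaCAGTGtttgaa
Slc40a1 5′ UTR, from base 96: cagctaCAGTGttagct
Tfrc 3′ UTR, from base 889: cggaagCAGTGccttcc
Tfrc 3′ UTR, from base 1268: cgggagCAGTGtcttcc
Tfrc 3′ UTR, from base 1333: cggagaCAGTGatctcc
Tfrc 3′ UTR, from base 1380: cgggaaCAGTGtttccc
The ferritin cores differ at 1 of 17 bases (C12T, with Fth1 first, counted from the first base of the core). The 4 Tfrc cores differ from one another at 2 to 6 bases. The search fixed the first C and the loop letters, so cores could differ only in the stems or in the base after the loop letters. These letters were not found in the annotated UTRs of the other 7 genes, which says nothing of other forms of the element.

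Libraries were checked first. Smc3 stood at 103 and 136 FPKM (fragments scaled by transcript length and by sequenced fragments) in the combined group, 94.7 and 89.9 in Flt3-ITD, 135 and 133 in Smc3 del/+ and 119 and 112 in controls. Mean Smc3 was thus not lower in the groups whose labels give a deletion, although combined replicate 1 lay below both controls. All directions refer to libraries as labelled. A value for the whole gene does not tell a deleted allele apart. Kit, the antigen used for selection, had 40.1 and 37.4 FPKM in the combined group, below all other libraries. It had 48.1 and 57.6 in Flt3-ITD, 49.5 and 48.9 in Smc3 del/+, and 60.1 and 54.9 in controls. Xist, the RNA that marks the inactive X chromosome of females, stood at 596 and 499.8 FPKM in the combined group, 0.326 and 0.140 in Flt3-ITD, 0.936 and 0.425 in Smc3 del/+, and 657 and 617 in controls. Flt3-ITD or Smc3 del/+ against control, and the combined group against Flt3-ITD, therefore also set 1 sex against the other, and in the interaction sex and genotype cannot be told apart. Both sexes are on each side of the averaged effects of either mutation. Genes listed at 0 numbered from 8878 to 11076 per library, the most in combined replicate 2, and the read depth is unknown. Replicates correlated at r = 0.932 in the combined group and at 0.975 to 0.981 in the others, across 10854 genes that are not independent.

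Against control, 6 of the 10 iron genes were lower in each of the groups that carry Flt3-ITD, and none was higher. In Flt3-ITD these were Tfrc, Steap3, Slc11a2, Fth1, Hmox1 and Aco1 (limma, Benjamini-Hochberg adjusted p below 0.05 over all genes). The background was 18.0% of all tested genes called, 9.5% lower and 8.51% higher. The same 6 symbols passed in the combined group, against a background of 11.8% called, 6.38% lower and 5.41% higher. The median log2 fold change of the 10 genes was -0.98 in Flt3-ITD and -0.75 for the combined group, where the median of all tested genes was -0.01 in each. Both comparisons share the controls. Over both Smc3 genotypes, Flt3-ITD carriers (4 libraries) differed from the other 4 in the 6 genes again, all lower, against a background of 23.8% called, 12.8% lower and 10.9% higher. Without regard to calls, 8 of the 10 had both Flt3-ITD libraries below both controls, as had 35.2% of all genes, while 34.3% had both above. In the combined group 8 of the 10 lay below both controls (26.8% of all genes) and Ireb2 above them (25.8%). All 4 carriers lay below all 4 other libraries in 8 of the 10, as in 15.1% of all genes, with 12.1% above. Values of a bulk fraction cannot tell fewer cells of a type from less RNA per cell.

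**Figure D1:**
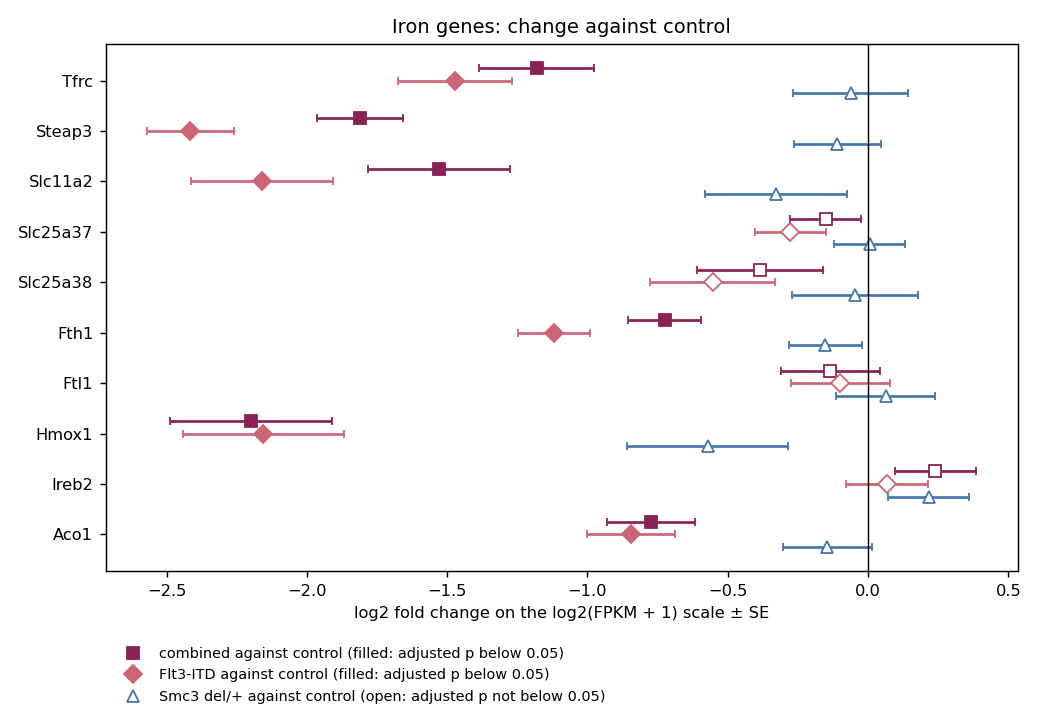
Log2 fold change against control (x axis, log2(FPKM + 1) scale) with its SE for each iron gene (y axis) in the combined group, Flt3-ITD and Smc3 del/+. Steap3, Slc11a2 and Hmox1 lie farthest to the left in both groups with Flt3-ITD, and no gene is filled, that is past the threshold, in Smc3 del/+.

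All 3 uptake genes fell in both groups with Flt3-ITD against control. Tfrc, the transferrin receptor, had 29.3 and 42.9 FPKM in the combined group, 25.4 and 32.8 in Flt3-ITD, 82.7 and 74.0 in Smc3 del/+, and 84.4 and 79.2 in controls. Each of the 4 libraries with Flt3-ITD lay below each of the 4 without it. The log2 fold change was -1.47 ± 0.205 (SE) in Flt3-ITD against control (limma adjusted p = 0.00474) and -1.18 ± 0.205 in the combined group against control (adjusted p = 0.0138). Over both Smc3 genotypes it was -1.30 ± 0.151 (adjusted p = 0.00152). Without control replicate 1 the Flt3-ITD comparison had an adjusted p of 0.0581.

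Steap3, the ferrireductase that reduces iron in the endosome, showed the lowest p of the 10 genes. It had 8.26 and 8.18 FPKM in the combined group, 4.70 and 5.46 in Flt3-ITD, 31.2 and 26.9 in Smc3 del/+, and 29.9 and 32.9 in controls. The combined libraries stood between those of Flt3-ITD and the rest, and none of these 3 sets overlapped. Steap3 fell to a mean of 5.08 ± 0.538 FPKM in Flt3-ITD, against 31.4 ± 2.18 in controls (SD, n = 2), a log2 fold change of -2.41 ± 0.154 (limma adjusted p = 0.000437). Only 1.29% of tested genes had a lower value in that comparison. The combined group against control gave -1.81 ± 0.154 (adjusted p = 0.00209), and the call held without any 1 of the 8 libraries in both comparisons.

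Slc11a2, the divalent metal transporter that lets iron out of the endosome, was the lowest of the uptake genes in level. It had 2.66 and 4.72 FPKM in the combined group, 2.24 and 1.68 in Flt3-ITD, 10.3 and 8.81 in Smc3 del/+, and 11.4 and 13.03 in controls. As for Tfrc, the libraries with Flt3-ITD lay below all others. The log2 fold change was -2.16 ± 0.253 in Flt3-ITD against control (limma adjusted p = 0.00282) and -1.53 ± 0.253 in the combined group against control (adjusted p = 0.0118). At these levels the pseudocount of 1 understates the change.

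**Figure D2:**
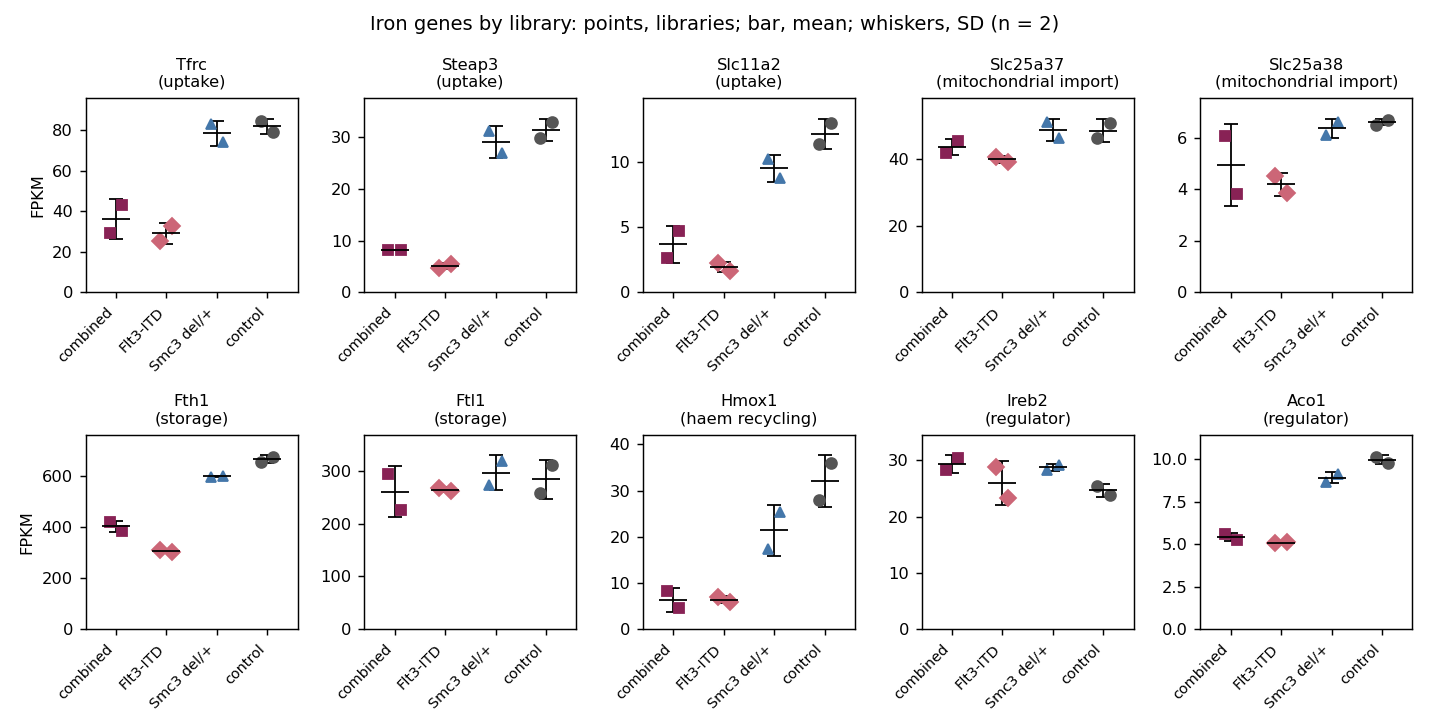
FPKM (y axis) of the 10 iron genes in each library, by group (x axis: combined, Flt3-ITD, Smc3 del/+, control); bars are means and whiskers the SD of 2 libraries. Steap3 stands at 8.22 FPKM in the combined group and 5.08 in Flt3-ITD against 31.4 in controls, while Ftl1 in each group overlaps the controls.

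For promoters, the RefSeq table (GRCm38.p6) matched 7 of the 10 genes, with no entry for Slc11a2, Slc25a37 and Hmox1. In the 250 bases before each start, 6 motifs were searched on both strands. Of 32851 promoters in the table, 9.99% hold the GATA letters AGATAA and 7.94% the variant TGATAA. The antioxidant response letters TGACNNNGC are in 10.2%, the hypoxia response letters ACGTG in 16.6%, the E-box CACGTG (which contains the hypoxia letters) in 6.02%, and CCAAT in 33.8%. The table lists 2 starts for Tfrc, 4 for Steap3 and 1 for Ftl1. The windows of the first Tfrc and Steap3 start, genes that fell together, and of Ftl1, which did not pass, are printed in the direction of the gene with matches in capitals.
Tfrc, chr16:32608646-32608895, plus strand: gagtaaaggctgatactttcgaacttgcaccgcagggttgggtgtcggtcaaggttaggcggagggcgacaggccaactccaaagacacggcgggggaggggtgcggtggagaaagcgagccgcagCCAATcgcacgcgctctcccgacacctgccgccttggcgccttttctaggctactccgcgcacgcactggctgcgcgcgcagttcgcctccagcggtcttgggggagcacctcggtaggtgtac
Steap3, chr1:120271081-120271330, minus strand: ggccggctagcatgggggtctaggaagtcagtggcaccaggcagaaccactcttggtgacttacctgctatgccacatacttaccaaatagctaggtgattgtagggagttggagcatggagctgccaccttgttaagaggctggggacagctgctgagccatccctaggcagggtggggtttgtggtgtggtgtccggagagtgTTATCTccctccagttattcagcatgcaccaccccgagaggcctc
Ftl1, chr7:45459887-45460136, minus strand: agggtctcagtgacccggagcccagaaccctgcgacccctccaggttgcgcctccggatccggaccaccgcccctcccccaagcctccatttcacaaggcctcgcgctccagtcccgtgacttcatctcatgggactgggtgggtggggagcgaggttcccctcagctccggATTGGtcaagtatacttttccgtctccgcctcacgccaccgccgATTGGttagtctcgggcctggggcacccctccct
The printed Steap3 window holds AGATAA on the reverse strand (TTATCT), the printed Tfrc window CCAAT, and the Ftl1 window 2 copies of CCAAT on the reverse strand (ATTGG). The GATA letters were not found in the other 3 Steap3 windows, 1 of which holds CCAAT, and the other Tfrc window holds ACGTG and no CCAAT. A match describes the letters and not a bound site.

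Neither mitochondrial carrier passed the test in this table with all libraries. Slc25a37, mitoferrin 1, which brings iron into mitochondria of erythroid cells, had 41.9 and 45.2 FPKM in the combined group, 40.7 and 39.0 in Flt3-ITD, 51.0 and 46.3 in Smc3 del/+, and 46.2 and 50.9 in controls. All 4 libraries with Flt3-ITD again lay below the other 4, but the gap was small. Its log2 fold change of -0.28 ± 0.127 in Flt3-ITD and -0.15 ± 0.127 for the combined group did not pass against control (limma adjusted p = 0.169 and 0.480). Slc25a38, a carrier needed for haem synthesis, had 6.06 and 3.81 FPKM in the combined group, 4.52 and 3.88 in Flt3-ITD, 6.12 and 6.63 in Smc3 del/+, and 6.53 and 6.71 in controls. Combined replicate 1 stood close to the groups without Flt3-ITD, and combined replicate 2 below both Flt3-ITD libraries. Slc25a38 had -0.55 ± 0.224 in Flt3-ITD against control (limma adjusted p = 0.127) and -0.39 ± 0.224 in the combined group (0.305). The first passed without combined replicate 1 or 2, with the value still at -0.55 and a smaller SE. The second passed without combined replicate 1 (-0.66). More of all genes were called in each of these fits than with all libraries. Averaged over both Smc3 genotypes, the values were -0.22 ± 0.0898 for Slc25a37 (adjusted p = 0.113) and -0.45 ± 0.157 for Slc25a38 (0.0714). Slc25a37 passed there without combined replicate 2 (adjusted p = 0.0320), and Slc25a38 without combined replicate 1 (0.0226).

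The ferritin chains, which together build the storage shell, had the highest levels of the 10 genes and behaved unlike each other. Fth1, the heavy chain with ferroxidase activity, had 419 and 386 FPKM in the combined group, 308 and 303 in Flt3-ITD, 597 and 599.7 in Smc3 del/+, and 655 and 676 in controls. The 4 groups did not overlap, with Flt3-ITD lowest and control highest. Ftl1, the light chain that helps the iron core form, had 295 and 227 FPKM in the combined group, 268 and 262 in Flt3-ITD, 274 and 320.5 in Smc3 del/+, and 259 and 311 in controls. Each group overlapped the controls, although both Smc3 del/+ libraries lay above both Flt3-ITD libraries.

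The log2 fold change of Fth1 was -1.12 ± 0.129 in Flt3-ITD against control (limma adjusted p = 0.00269) and -0.72 ± 0.129 in the combined group against control (adjusted p = 0.0151). For Ftl1 the values were -0.10 ± 0.176 (adjusted p = 0.743) and -0.13 ± 0.176 (0.668). Within each library the level of Fth1 over that of Ftl1 was 1.42 and 1.70 in the combined group, 1.15 and 1.16 in Flt3-ITD, 2.18 and 1.87 in Smc3 del/+, and 2.53 and 2.17 in controls. The 4 carriers averaged 1.36 ± 0.263 and the other 4 libraries 2.19 ± 0.269 (SD, n = 4 each), and the table the authors normalized gave 1.36 ± 0.265 and 2.18 ± 0.254. This ratio and the 2 given below were chosen after their values were seen and are descriptions without a test. The annotation names 2 pseudogenes for each ferritin chain, so reads shared with them make both levels uncertain. The messages carry nearly the same hairpin, as printed above; these data hold RNA levels and not translation.

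Haem recycling was represented by Hmox1, the inducible haem oxygenase, which releases iron from haem. It had 8.21 and 4.53 FPKM in the combined group, 6.97 and 5.79 in Flt3-ITD, 17.5 and 25.3 in Smc3 del/+, and 28.0 and 36.0 in controls. The libraries with Flt3-ITD lay below all others, and both Smc3 del/+ libraries lay below both controls. Hmox1 fell to 6.38 ± 0.829 FPKM in Flt3-ITD, against 32.0 ± 5.61 in controls (SD, n = 2; log2 fold change -2.15 ± 0.288, limma adjusted p = 0.00444), and by 2.20 ± 0.288 on the log2 scale in the combined group against control (adjusted p = 0.00624). Only 1.01% of tested genes had a lower value in the combined group. Without control replicate 2 the Flt3-ITD comparison had an adjusted p of 0.0503. In Smc3 del/+ against control the value was -0.57 ± 0.288 and did not pass (adjusted p = 1, unadjusted p = 0.0839).

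The iron regulatory proteins also parted. Ireb2, iron regulatory protein 2, had 28.2 and 30.4 FPKM in the combined group, 28.8 and 23.2 in Flt3-ITD, 28.4 and 29.2 in Smc3 del/+, and 25.5 and 23.9 in controls. The Flt3-ITD libraries overlapped the controls, and those of the other groups lay slightly above them. Aco1, the cytosolic aconitase that becomes iron regulatory protein 1 when it lacks its iron-sulphur cluster, had 5.57 and 5.26 FPKM in the combined group, 5.06 and 5.14 in Flt3-ITD, 8.69 and 9.15 in Smc3 del/+, and 10.2 and 9.78 in controls. Its 4 groups did not overlap.

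Aco1 had log2 fold changes of -0.85 ± 0.157 in Flt3-ITD (limma adjusted p = 0.0129) and -0.77 ± 0.157 for the combined group (adjusted p = 0.0229) against control, while Ireb2 had 0.07 ± 0.145 (0.791) and 0.24 ± 0.145 (0.323). The Aco1 call was the least stable of the 6 in Flt3-ITD. Its adjusted p was 0.116 and 0.0906 without control replicates 1 and 2, and 0.0796 and 0.0547 without Flt3-ITD replicates 1 and 2. The level of Ireb2 over that of Aco1 was 5.06 and 5.79 in the combined group, 5.69 and 4.52 in Flt3-ITD, 3.26 and 3.20 in Smc3 del/+, and 2.51 and 2.44 in controls. Slc25a37 over Tfrc gave 1.43 and 1.05, 1.60 and 1.19, 0.617 and 0.626, and 0.547 and 0.642 in the same order of groups. In both ratios the 4 libraries with Flt3-ITD lay above the other 4.

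**Figure D3:**
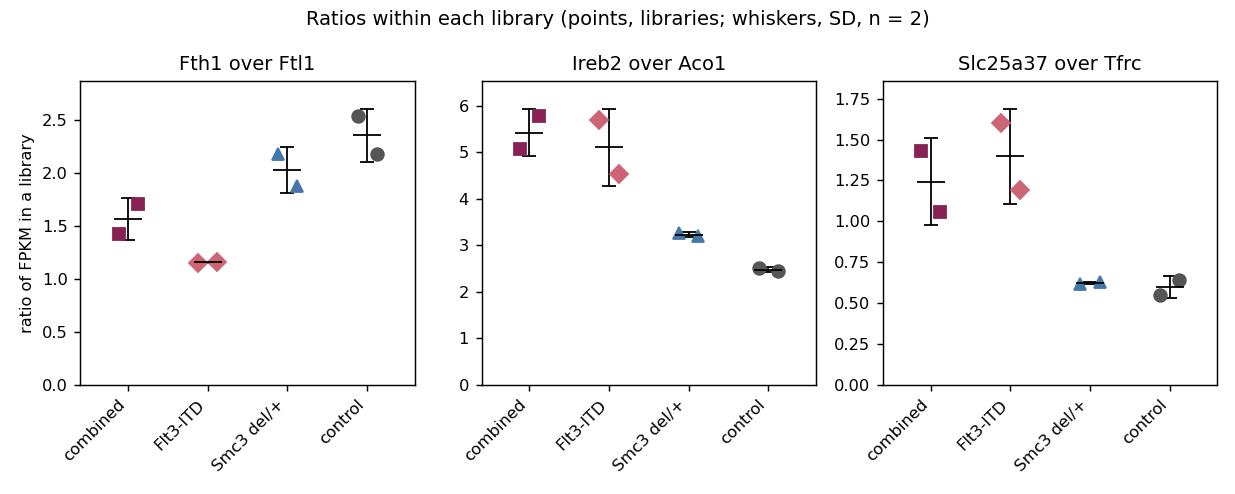
Ratio of FPKM values within each library (y axis) for Fth1 over Ftl1, Ireb2 over Aco1 and Slc25a37 over Tfrc, by group (x axis), with means and the SD of 2 libraries. The 4 libraries with Flt3-ITD lie between 1.15 and 1.70 for Fth1 over Ftl1, and the other 4 between 1.87 and 2.53.

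Of the 6 calls in the combined group against control, 5 were lost when single libraries were left out. Without control replicate 1 or 2, Steap3 alone of the 10 genes passed, with an adjusted p of 0.0361 and 0.0343. Hmox1 then had adjusted p-values of 0.0561 and 0.0649, Slc11a2 of 0.0889 and 0.108, Tfrc of 0.119 and 0.0981, Fth1 of 0.124 and 0.135, and Aco1 of 0.171 and 0.147. Without Smc3 del/+ replicate 1 or 2, Fth1 (0.0543 and 0.0548) and Aco1 (0.0698 and 0.0696) did not pass. When the fit held these 2 groups alone, Steap3 passed (limma adjusted p = 0.0488) and the other 9 did not. In that fit 41 of all 10854 tested genes were called, against 1279 with all groups. Each fit above that left out a library also called fewer of all genes than the main fit. The log2 fold changes of the 6 called genes kept their sign in each of these fits. Averaged over both Smc3 genotypes, the 6 genes passed without any 1 of the 8 libraries. Sex is balanced there only with all 8 libraries, and the side without Flt3-ITD includes the controls, which lack Mx1-cre.

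Whether the Smc3 deletion altered these genes was asked in Smc3 del/+ against control and, next to Flt3-ITD, in the combined group against Flt3-ITD. None of the 10 passed in the first, where the background was 0.00921% called by limma and 494 genes had an unadjusted p below 0.05. The log2 fold changes ran from -0.57 for Hmox1 to 0.22 for Ireb2. Fth1, Slc11a2, Hmox1 and Aco1 were nevertheless lower in both Smc3 del/+ libraries than in both controls, as were 23.2% of all genes. Ireb2 was higher in both, as were 24.2%.

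In the combined group against Flt3-ITD again none of the 10 passed, with a limma background of 0.286% and 1196 genes at an unadjusted p below 0.05. Steap3 had a log2 fold change of 0.60 ± 0.154 (unadjusted p = 0.00487, adjusted p = 0.239). Fth1 had 0.39 ± 0.129 (unadjusted p = 0.0168, adjusted p = 0.359) and Slc11a2 0.63 ± 0.253 (unadjusted p = 0.0381, adjusted p = 0.428). Steap3, Slc11a2, Slc25a37, Fth1 and Aco1 were higher in both combined libraries than in both Flt3-ITD libraries, as were 17.1% of all genes, with 16.8% lower. Combined replicate 1 decided the calls: without it, Tfrc (0.56, adjusted p = 0.0380), Steap3 (0.60, 0.0301), Slc11a2 (0.95, 0.0148) and Fth1 (0.34, 0.0495) passed, and the number of all genes called went to 3248 against 31 with all libraries. Without it the combined group rests on replicate 2, whose spread is then assumed to be that of the other groups.

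The averaged effect of the Smc3 deletion passed in none of the 10 genes, with a limma background of 0.0%, that is 0 genes called and 525 at an unadjusted p below 0.05. All 10 overlapped between the 4 libraries with the deletion and the 4 without, where 0.912% of all genes lay wholly higher and 0.783% wholly lower. The interaction, which asks whether the effect of the deletion differs between Flt3 genotypes, also passed in none (background 0.0369%, 1009 genes at an unadjusted p below 0.05). Its largest values were 0.96 ± 0.357 for Slc11a2 (unadjusted p = 0.0289), 0.71 ± 0.217 for Steap3 (0.0121) and 0.55 ± 0.183 for Fth1 (0.0184), with limma adjusted p of 0.474, 0.384 and 0.432. Leaving out combined replicate 1, Slc11a2 (1.28, adjusted p = 0.0213) and Fth1 (0.49, adjusted p = 0.0470) passed, among 2036 genes called against 4 with all libraries.

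A wider list of 42 iron genes was read in the same fit; 40 were found under these symbols and 31 were tested. In Flt3-ITD against control 5 were higher, 8 lower and 18 did not pass, and the median log2 fold change was 0.00121. Of all tested genes, 8.51% were higher and 9.5% lower there. Against control, the combined group had 5 higher and 6 lower, with a median of -0.03, beside 5.41% and 6.38% of all tested genes. The genes named for their change are among the 12 with the smallest p in at least 1 of these comparisons. Slc40a1 is named for its printed hairpin and Trf as a secreted iron carrier, both chosen after their values were seen, and others because they were listed at 0 in a group. With the authors' normalized values, Flt3-ITD had 3 of the list higher and 14 lower and the combined group 1 higher and 19 lower. The median of all genes, given below, was lower in that table. Of all 10854 tested genes, 107 were higher and 4676 lower there in Flt3-ITD, and 121 higher and 5795 lower in the combined group.

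Several genes of haem and iron-sulphur metabolism were called lower with Flt3-ITD. Blvrb, biliverdin reductase B, which acts after haem oxygenase, had 14.0 and 16.7 FPKM in the combined group, 8.69 and 4.10 in Flt3-ITD, 77.4 and 66.1 in Smc3 del/+, and 93.2 and 88.9 in controls. Its log2 fold change was -3.71 ± 0.279 in Flt3-ITD and -2.50 ± 0.279 for the combined group against control (limma adjusted p = 0.000715 and 0.00416). Glrx5, a glutaredoxin of iron-sulphur cluster assembly, had 8.51 and 11.7, 7.80 and 8.63, 18.7 and 22.5, and 25.2 and 27.5 FPKM in the same order of groups. Against control, Glrx5 had log2 fold changes of -1.57 in Flt3-ITD and -1.31 for the combined group (limma adjusted p = 0.00296 and 0.00753). The porphyrin transporter gene Abcb6 fell by 1.60 and 1.63 on the log2 scale in these comparisons. Abcb10, a mitochondrial transporter that binds mitoferrin 1, fell by 0.99 in Flt3-ITD (adjusted p = 0.0400), with 9.01 and 9.34 FPKM against 18.8 and 19.5 in controls. It did not pass in the combined group, where the libraries had 8.51 and 16.1 FPKM.

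Among surface genes, Tfr2, the second transferrin receptor, had 2.24 and 6.17 FPKM in the combined group, 2.81 and 2.55 in Flt3-ITD, 14.6 and 10.3 in Smc3 del/+, and 16.9 and 16.9 in controls. Slc39a8, a zinc, manganese and iron importer, had 4.80 and 7.89, 4.57 and 3.32, 14.2 and 12.9, and 18.0 and 14.9 FPKM in the same order. For Tfr2 the log2 fold change was -2.28 ± 0.354 in Flt3-ITD and -1.89 ± 0.354 for the combined group (limma adjusted p = 0.00688 and 0.0177). For Slc39a8 it was -1.83 ± 0.247 and -1.28 ± 0.247 (0.00446 and 0.02004). The exporter Slc40a1, whose message carries one of the printed hairpins, did not pass in any comparison and had 38.1 and 31.3, 36.7 and 28.6, 39.0 and 37.9, and 34.4 and 33.3 FPKM.

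Of the called genes that were higher, Cp, Lcn2, Hp and Ncoa4 passed in both comparisons with control, Ltf in Flt3-ITD and Hmox2 in the combined group. Trf, transferrin, had 0.44 in Flt3-ITD and 0.41 for the combined group (limma adjusted p = 0.414 and 0.486). Cp, ceruloplasmin, a ferroxidase, had 21.0 and 9.22 FPKM in the combined group, 7.11 and 14.9 in Flt3-ITD, 1.48 and 1.03 in Smc3 del/+, and 0.859 and 0.997 in controls. It rose by 2.56 ± 0.424 in Flt3-ITD and 2.96 ± 0.424 for the combined group on the log2 scale (limma adjusted p = 0.00858 and 0.00753). Lcn2, lipocalin 2, which captures bacterial iron carriers, had 8288 and 7608, 10031 and 7232, 4618 and 4512, and 3597 and 3489.8 FPKM in the same order. It rose by 1.27 and 1.16 (adjusted p = 0.0181 and 0.0312), and Hp, haptoglobin, by 0.98 and 0.70 (0.0133 and 0.0488). Ltf, lactoferrin, rose by 1.48 in Flt3-ITD (0.0104) and had 0.95 in the combined group (0.0550). Ncoa4, the receptor that delivers ferritin to lysosomes, had 152 and 201 FPKM in the combined group, 178 and 175 in Flt3-ITD, 117 and 126 in Smc3 del/+, and 112 and 109.7 in controls, with values of 0.66 in both comparisons (0.0261 and 0.0349). Hmox2, the constitutive haem oxygenase, rose by 0.60 in the combined group (0.0429).

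In the table the authors normalized, several of these rises did not pass: Hp (0.48 in Flt3-ITD, 0.04 in the combined group), Ncoa4 (0.15 and -0.02), Lcn2 in the combined group (0.58) and Hmox2 there (-0.10). The genes called lower kept their sign and their call in that table. The median of all genes there was -0.58 for Flt3-ITD and -0.67 for the combined group, each against control. With the median shifted down, a lower call is easily kept and a higher one easily lost, so neither separates these genes from the rest. The values just given for Hp, Ncoa4, Lcn2 and Hmox2 all lay above these medians. Hamp, Hpx and Ftmt, which encode hepcidin, haemopexin and mitochondrial ferritin, were listed at 0 in every library. Steap4, a ferrireductase, was listed at 0 in the 4 libraries with Flt3-ITD and had 0.437 and 0.450 FPKM in Smc3 del/+ and 2.49 and 0.739 in controls. Heph and Cybrd1 were listed at 0 in both Flt3-ITD libraries and were below 0.4 FPKM in all others.

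**Figure D4:**
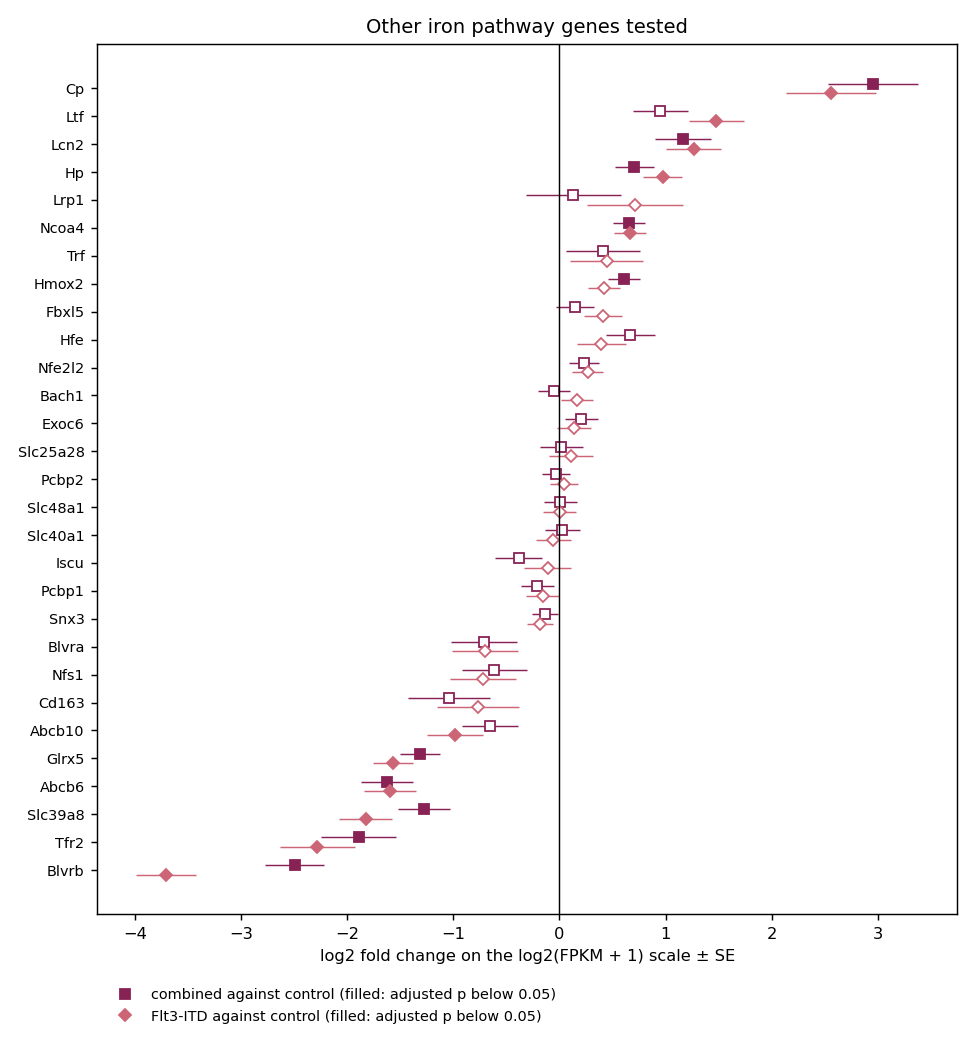
Log2 fold change against control (x axis, log2(FPKM + 1) scale) with its SE for 29 of the 31 other iron genes tested (y axis, ordered by the Flt3-ITD value), in the combined group and Flt3-ITD. Cp stands at the top with 2.96 and 2.56, and Blvrb at the bottom with -2.50 and -3.71.

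None of the 31 passed in Smc3 del/+ against control, in the combined group against Flt3-ITD, for the averaged Smc3 deletion or for the interaction. Among the genes of smallest p were Hmox2 (0.37), Hp (0.42), Abcb6 (-0.54) and Glrx5 (-0.34) in the first, each with a limma adjusted p of 1. In the combined group against Flt3-ITD they included Blvrb (1.22, unadjusted p = 0.00275, adjusted p = 0.192), Slc39a8 (0.55) and Ltf (-0.53). For the averaged Smc3 deletion they included Hmox2 (0.28), Hfe (0.34) and Fbxl5 (-0.25), and for the interaction Blvrb (1.56, adjusted p = 0.2996), Hp (-0.69), Slc39a8 (0.81) and Glrx5 (0.60). For Flt3-ITD averaged over both Smc3 genotypes 6 were higher and 7 lower, led by Cp (2.65), Blvrb (-2.93), Glrx5 (-1.27) and Abcb6 (-1.34). Of all tested genes, 10.9% were higher and 12.8% lower in this comparison.

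Erythroid markers were mostly lower in the groups with Flt3-ITD, and marrow macrophage markers were mixed. Of 18 erythroid markers, 17 were tested, and against control 16 were lower for Flt3-ITD and 15 for the combined group, with none lower in Smc3 del/+. Of all tested genes, 9.5% were lower for Flt3-ITD and 6.38% for the combined group. Their summed level was 168 and 549.9 FPKM in the combined group, 145 and 43.4 in Flt3-ITD, 1598 and 1712 in Smc3 del/+, and 1850.3 and 1771 in controls. None of the 18 was at 0 in any group. Car1 and Ermap, which were among the 3 with the highest levels, had 109 and 406 and 8.89 and 24.3 FPKM in the combined libraries, 111 and 29.5 and 5.04 and 1.93 in Flt3-ITD, and 1216 and 1135 and 128 and 120.3 in controls. The part of the erythroid markers in the changes of the iron genes was not tested.

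Within the combined pair, replicate 2 had the higher erythroid sum, and it also had the higher Tfrc, Slc11a2, Slc25a37, Ireb2, Tfr2 and Blvrb. Steap3, Slc25a38, Fth1, Ftl1, Hmox1 and Aco1 were higher in replicate 1. Within the Flt3-ITD pair, replicate 1 had the higher erythroid sum. It also had the higher Slc11a2, Slc25a37, Slc25a38, Fth1, Ftl1, Hmox1, Ireb2, Tfr2 and Blvrb, and the lower Tfrc, Steap3 and Aco1. Each is a difference between single libraries and was not tested.

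Of 12 marrow macrophage markers 10 were tested, and 6 were lower and 1 higher in Flt3-ITD and 4 lower in the combined group. The background was 9.5% of all genes lower and 8.51% higher in Flt3-ITD, and 6.38% lower in the combined group. Their summed level ranged from 84.6 to 97.1 FPKM in the combined group, 83.9 to 93.7 in Flt3-ITD, 118 to 139.7 in Smc3 del/+, and 114 to 127 in controls. Cd5l was at 0 in the combined group and in Flt3-ITD. Vcam1, Slc40a1 and C1qb had the highest levels. Vcam1 had 35.3 and 55.7, 48.3 and 48.2, 49.4 and 60.0, and 47.5 and 42.4 FPKM in the same order of groups. Slc40a1, given above, did not pass in any comparison. C1qb had 2.62 and 1.36, 1.90 and 0.401, 7.29 and 10.5, and 8.64 and 13.7 FPKM. The part of the macrophage markers in the Hmox1 values was not tested.

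Mature neutrophil markers (S100a9, S100a8 and Ngp the highest) were higher for 5 of 10 genes in Flt3-ITD and for 3 of 10 in the combined group. The list holds Ltf and Lcn2, and its summed level was 142750 and 172755 FPKM in the combined group, 229810 and 160830 in Flt3-ITD, 108974 and 104889 in Smc3 del/+, and 87001 and 79712.5 in controls. Monocyte markers (Ly6c1, F13a1, Ly86) were higher in 3 of 6 and 4 of 6. Of 7 progenitor markers tested (Mpo, Elane and Ctsg the highest) 1 was lower in Flt3-ITD, and 1 was higher and 2 lower in the combined group. Megakaryocyte markers (Pf4, Ppbp, Gp1ba) were lower in 6 of 6 and 5 of 6, B lineage markers (Igll1, Cd79b, Cd79a) in 5 of 6 and 5 of 6, and mast cell and basophil markers (Cpa3, Mcpt8, Ms4a2) in 3 of 5 and 1 of 5. None of the tested markers in these lists passed in Smc3 del/+ against control in the first table. Of all genes in that table, 8.51% were higher and 9.5% lower in Flt3-ITD, and 5.41% higher and 6.38% lower in the combined group. In the table the authors normalized, neutrophil markers were higher for 3 of 10 genes in Flt3-ITD and 0 of 10 for the combined group, and monocyte markers for 1 of 6 and 2 of 6. The background there was 107 of all 10854 genes higher and 4676 lower in Flt3-ITD, and 121 higher and 5795 lower in the combined group. Macrophage markers there were lower for 7 of 10 and 9 of 10 with none higher, progenitor markers for 3 of 7 and 4 of 7, B lineage markers for 6 of 6 in both, and mast cell and basophil markers for 5 of 5 in both. Megakaryocyte markers were lower for 6 of 6 in both and for 3 of 6 in Smc3 del/+ against control, where 10 of all 10854 genes were lower. Their part in the iron gene values was not tested.

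The choice of table sets how many of the iron genes passed. Summed over the spike-in rows, the libraries ran from 9509 to 18628 FPKM in the first table. In the table the authors normalized they ran from 13573 to 14697, so the spike-in level was more even there. In the values the authors normalized, all genes together had a median of -0.58 for Flt3-ITD and -0.67 for the combined group, each against control. There 8 iron genes were lower for Flt3-ITD, 9 for the combined group, and all 10 for Flt3-ITD averaged over both Smc3 genotypes. The background in the same order was 4676, 5795 and 4791 of all 10854 tested genes lower. Slc25a37 (-0.80, adjusted p = 0.0108) and Slc25a38 (-1.17, 0.00680) joined in Flt3-ITD, and Slc25a37 (-0.85), Slc25a38 (-1.04) and Ftl1 (-0.79) in the combined group. Ftl1 at -0.59 in Flt3-ITD lay close to the median of all genes. Ireb2 turned to -0.47 in both comparisons and did not pass (limma adjusted p = 0.0589 and 0.0506). Relative to the median of all genes, Ireb2 stood above it in both tables, and Tfrc, Steap3, Slc11a2, Fth1, Hmox1 and Aco1 below it in both.

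**Figure D5:**
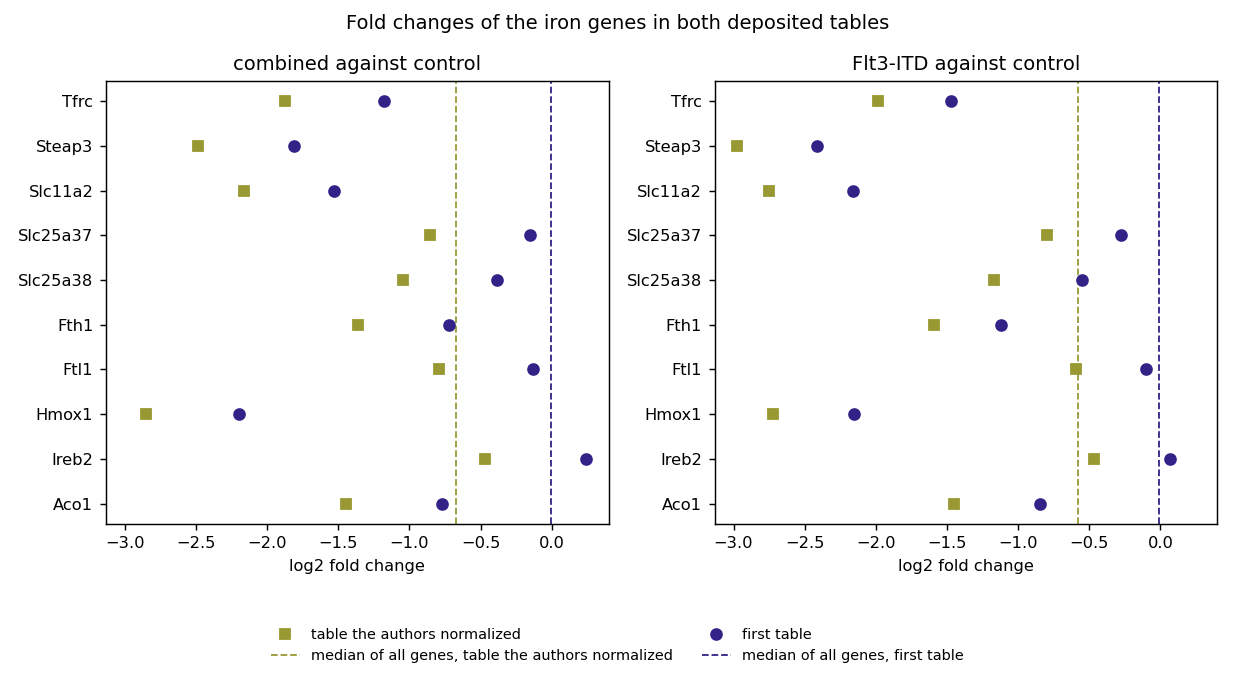
Log2 fold change (x axis) of the 10 iron genes (y axis) against control in the combined group and Flt3-ITD, from the first table (circles) and the table the authors normalized (squares); dashed lines are the medians of all tested genes. Every gene and the median lie farther to the left in the normalized table, and Ireb2 lies to the right of the median in both.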

How the data were processed

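FPKM values of 8 libraries were analysed, in 2 deposited tables of 23385 rows (23293 mouse genes and 92 spike-in rows). The authors' FPKM values are fragments scaled by transcript length and by mapped fragments; the submitters' processing notes name mm9, Cufflinks 2.0.0 and TopHat without their roles. In the second deposited FPKM table the authors rescaled the values by a method not given in the sources used here, as are the annotation and the use of strand. The first table gave the main results.

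Depth was looked for in low values, but the commonest step relative to control replicate 1 held for only 5.56% to 8.25% of low genes, which gives no read depth. Tests used limma 3.58.1 (R 4.3.3) on log2(FPKM + 1) with an intensity trend, on 10854 genes whose mean reached 1 FPKM, with Benjamini-Hochberg adjustment over all of them and a threshold of 0.05. Single comparisons and the interaction used 1 fit of 4 group means (4 residual degrees of freedom), and averaged effects an additive model (5). An exact permutation test of 2 against 2 libraries cannot go below p = 0.333. The fits were tested on simulated data.

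The members, lists and tests were chosen with earlier results of these data known. Named are the 10 genes, of the wider iron list up to 12 genes of smallest p in the comparisons of Flt3-ITD and of the combined group with control and up to 4 elsewhere, the 3 highest markers of each cell type list, and Smc3, Kit and Xist; some genes this rule names are not reported here. Alternatives were a pseudocount of 0.1, no filter, the normalized table, median-ratio scaling, only the compared groups, a replicate block and leaving out each library.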

Additional observations from a re-analysis of the deposited data

How the results depend on the processing

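For the 10 iron genes in 7 comparisons, 860 recomputed log2 fold changes kept their direction and their side of the threshold, 25 lost the call, 19 gained it and 46 changed sign. None of the results that changed sign was called with all libraries in the first table, and the cause of the changes was not tested. Read depth is unknown, so counting error could not be set beside the values of low genes such as Slc11a2.

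In the table the authors normalized, 10 iron genes were called for averaged Flt3-ITD, beside 5012 of all 10854 tested genes. Ireb2 had -0.47 in Flt3-ITD against control, -0.47 in the combined group against control, -0.15 in Smc3 del/+ against control, -0.39 for averaged Flt3-ITD, -0.077 for the averaged Smc3 deletion and 0.15 for the interaction. Slc25a37 had -0.35 in Smc3 del/+ (-0.00204 with median-ratio scaling), -0.057 in the combined group against Flt3-ITD and -0.21 for the averaged Smc3 deletion. Ftl1 had -0.26, -0.23 for the averaged Smc3 deletion and 0.062 for the interaction. Aco1 had -0.000115 in the combined group against Flt3-ITD. For the averaged Smc3 deletion Tfrc had -0.15, Steap3 -0.00389, Slc11a2 -0.077, Slc25a38 -0.17 and Fth1 -0.11. The median of all genes in these values was -0.24 for the averaged Smc3 deletion and -0.38 in Smc3 del/+ against control. It was -0.11 in the combined group against Flt3-ITD and 0.27 for the interaction. Tfrc, Steap3, Slc11a2, Slc25a38 and Fth1 lay above the median for the averaged Smc3 deletion with either set of values.

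With only the compared groups, 1 iron gene was called in the combined group against control. Leaving out 1 library at a time, the number called ran from 4 to 7 in Flt3-ITD and from 1 to 7 in the combined group against control, from 0 to 4 in the combined group against Flt3-ITD, from 6 to 7 for averaged Flt3-ITD and from 0 to 2 for the interaction. The log2 fold changes that changed sign there ran from -0.23 to 0.034 for Ftl1 and -0.081 to 0.21 for Ireb2 in Flt3-ITD against control, and from -0.32 to 0.055 for Ftl1 in the combined group against control. In Smc3 del/+ against control they ran from -0.14 to 0.017 for Tfrc, -0.063 to 0.074 for Slc25a37, -0.10 to 0.00256 for Slc25a38 and -0.070 to 0.20 for Ftl1. In the combined group against Flt3-ITD they ran from -0.11 to 0.45 for Slc25a38, -0.22 to 0.15 for Ftl1 and -0.41 to 0.32 for Hmox1. For averaged Flt3-ITD, Ireb2 ran from -0.018 to 0.10. For the averaged Smc3 deletion, Tfrc ran from -0.028 to 0.19, Slc11a2 from -0.072 to 0.29, Slc25a38 from -0.071 to 0.15 and Ftl1 from -0.052 to 0.10. For the interaction, Slc25a38 ran from -0.061 to 0.49, Ftl1 from -0.29 to 0.091 and Ireb2 from -0.19 to 0.11.

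Over all genes, 1955 were called in Flt3-ITD (924 higher, 1031 lower) and 1279 in the combined group (587 higher, 692 lower) against control. The normalized table gave 4783 (107 higher, 4676 lower) and 5916 (121 higher, 5795 lower), and only the compared groups 3603 and 41. For averaged Flt3-ITD the normalized table gave 5012, against 2581. Leaving out 1 library gave 243 to 4235 in Flt3-ITD and 83 to 3427 in the combined group against control, and 1208 to 4703 for averaged Flt3-ITD.

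Same-numbered replicates did not deviate together (correlations across genes from -0.113 to 0.0229). The labels do not say whether a number marks a shared batch, and low correlations across genes cannot exclude one. With a replicate block, 1714 and 1012 genes were called for Flt3-ITD and the combined group against control and 2310 for averaged Flt3-ITD, and the iron genes called stayed at 6, 6 and 6, with 0 in the other 4 comparisons. The block gave 3 genes in the combined group against Flt3-ITD, against 31.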
